A study of Mus musculus with 14 samples.

Results

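The genes described here were 10 transcription factor genes of the mouse oocyte, chosen by name for their known roles in oocyte gene expression: Figla, Nobox, Lhx8, Sohlh1, Sohlh2, Taf4b, Tbpl2, Obox1, Obox5 and Obox6. They were chosen with earlier results of these data known, so counts among them are descriptions. They were 10 of the 20638 genes in the count tables. Each was represented by 1 RefSeq transcript. The tables held RNA-seq counts of full-grown oocytes that still had an intact germinal vesicle, freed of cumulus cells by pipetting and collected 48 h after 5 IU of eCG (equine chorionic gonadotropin, which stimulates follicle growth) from females 4 to 6 weeks old. Each of the 14 libraries was a pool of 20 oocytes from at least 3 animals of mixed, mostly C57BL6 background, and replicates came from separate collections. P-values measure the spread between these pools.

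There were 5 groups. Ago2 fl/fl oocytes (3 libraries) carried floxed Ago2 alleles without Cre and served as the control. Ago2 ADH oocytes (3 libraries) carried 1 floxed allele, deleted by Cre under the Zp3 promoter, and 1 knock-in allele whose product binds small RNAs but cannot cleave their targets. Ago2 null oocytes (2 libraries) had both floxed alleles deleted by Zp3-Cre. Dicer WT and Dicer KO oocytes (3 libraries each) came from an oocyte-specific deletion of Dicer, the enzyme that makes siRNAs and miRNAs. The Zp3 promoter becomes active in growing oocytes, so the floxed alleles are intact in earlier stages, and whether protein made before excision remained was not tested here. In the paper's siRNA injection assay, Ago2 ADH oocytes kept slight cleavage activity. The paper proposes that lasting wild-type AGO2 may account for it. The comparisons asked how the mRNAs of these factors differed in oocytes with the cleavage-dead Ago2 allele, with Ago2 deleted and with Dicer deleted.

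FIGLA, SOHLH1 and SOHLH2 are basic helix-loop-helix proteins, which bind the E-box sequence CANNTG as dimers, and NOBOX, LHX8 and the OBOX proteins are homeodomain proteins. FIGLA, NOBOX, LHX8, SOHLH1 and SOHLH2 are known for switching on oocyte genes as primordial follicles form and begin to grow, and mice that lack them lose oocytes early. TAF4B is a gonadal subunit of TFIID, the general factor that recruits RNA polymerase II, and TBPL2 takes the place of the TATA-binding protein in growing oocytes. The OBOX proteins are encoded by a family of similar genes and are known for their part in activation of the embryonic genome.

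Sohlh2 and Nobox were the genes whose mRNA rose in each of the 3 mutant comparisons. The sequence upstream of the Sohlh2 start is shown for that reason, from RefSeq on build GRCm38.p6, 5′ to 3′, ending before the first exon base in RefSeq and in GENCODE M21. The E-box is in capitals.
Sohlh2, chr3:55181794-55182027, plus strand: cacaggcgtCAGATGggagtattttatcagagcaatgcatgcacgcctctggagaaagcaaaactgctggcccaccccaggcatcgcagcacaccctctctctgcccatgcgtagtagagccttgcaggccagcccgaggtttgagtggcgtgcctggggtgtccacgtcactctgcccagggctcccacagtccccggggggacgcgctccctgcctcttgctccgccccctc
In windows of 250 bases before to 50 bases after the start, which were found for 8 of the 10 genes, Sohlh2 had 1 E-box, Nobox had 2, Sohlh1 and Tbpl2 had 5 E-boxes each, Figla had 4, Obox1 and Obox5 had 2 each, and Lhx8 had 0. An E-box was found on either strand in 72.3% of all 32851 promoter windows, so 7 of 8 was near the usual share. Neither TAATTG, the core of the NOBOX element, nor the TATA box TATAAA was found in any of the 8 windows. Only these exact letters were searched, so the absence holds for these spellings alone. The Obox1 and Obox5 windows hold the related run TATATAAG, which the search did not count. The annotations differ on the start of Nobox, on the minus strand: its window is set at the GENCODE M21 start, at 43309554, whereas its RefSeq interval reaches 43310072, so the window lies inside that interval and its sequence is not printed. They also differ on the starts of Figla, Lhx8, Sohlh2, Obox1 and Obox5. The Figla window, 86016941-86017240, lies inside both its RefSeq interval, from 86016494, and its GENCODE M21 interval, from 86016171. Its 4 E-boxes were therefore not counted at the outer start of either annotation. The NOBOX element and the TATA box were present in 8.0% and 13.6% of all windows. All 3 motifs were searched on both strands, and no match in one contains another.

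The Obox genes needed a different look, because several of their transcripts are alike. The first 90 coding bases of Obox1, Obox5 and Obox2, a relative outside the chosen genes, are printed to show how little distinguishes these 3. They are from the GENCODE M21 transcripts on GRCm38, with bases that differ from Obox1 in capitals.
Obox1: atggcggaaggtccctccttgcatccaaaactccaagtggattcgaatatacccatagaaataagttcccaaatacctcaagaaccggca
Obox2: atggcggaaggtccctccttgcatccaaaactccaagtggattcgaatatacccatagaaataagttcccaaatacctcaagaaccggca
Obox5: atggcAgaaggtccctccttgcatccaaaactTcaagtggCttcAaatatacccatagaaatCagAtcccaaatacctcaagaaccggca
Obox1 and Obox2 had 0 differences in this stretch and Obox5 had 6. Obox6, which is not printed, had 62 when compared base by base without alignment. Over 453 aligned coding bases Obox2 was 98.5% identical to Obox1. Over 612 bases Obox5 was 95.6% identical and Obox6 77.6%, so Obox6 was less alike. Of all 36-base words in the Obox1 transcript 70.0% also occurred in another gene, mostly Obox2, against 27.1% for Obox5 and 10.2% for Obox6. With 50-base words the shares were 59.3%, 13.0% and 5.02%. The other 7 transcripts shared 0 words of either length with any other gene. These are the read lengths named in the study's methods. Reads that aligned to several places were tallied apart from the gene counts, so the counts of Obox1 and Obox5 come from the part of each transcript that is its own, and their values are uncertain to that extent. The 3 Obox genes lie together on chromosome 7, with Obox1 at 15547257-15556846, Obox5 at 15750370-15759274 and Obox6 at 15833250-15839679. In GENCODE M21 an exon of Obox1 overlaps one of Obox2 by 59 bases on the same strand, and no exon of the other members overlaps another gene.

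**Figure D1:**
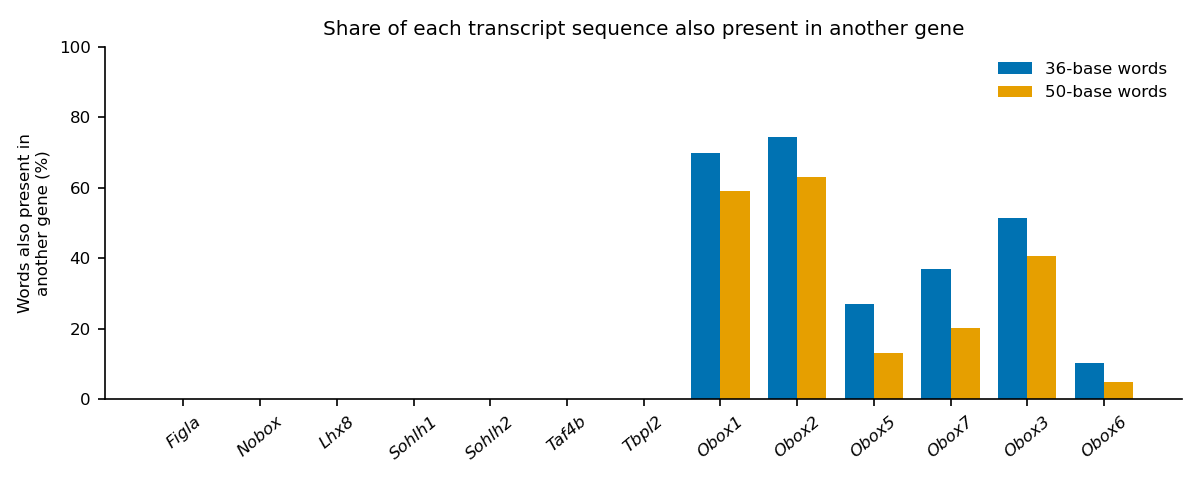
Percent of the 36-base (blue) and 50-base (orange) words of each transcript that also occur in a transcript of another gene, for the 10 transcription factors and for Obox2, Obox3 and Obox7. The bars stand at 0 for the 7 genes outside the Obox family and reach 70.0% for Obox1.

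Libraries held 29380403 to 58285057 counts, which puts 3 counts, the floor used here for detection, at 0.0515 to 0.102 CPM, counts scaled to a common library size. Such floors cover counting error only. Levels were expressed as CPM after TMM scaling, a correction for library composition, and they give a share of the RNA in a library, so that a change in RNA per oocyte and a change in the mixture of oocytes cannot be told apart. Ago2 mRNA was 24.0 to 25.5 CPM in Ago2 fl/fl, 12.4 to 13.7 in Ago2 ADH and 5.30 to 7.17 in Ago2 null libraries. Dicer1 counts were 745 to 779 CPM in Dicer WT and 1679 to 1944 CPM in Dicer KO libraries. The table does not separate deleted from retained exons, so the higher Dicer1 count does not check the deletion. Oocyte markers summed to at least 12233 CPM in every library. The 14 granulosa cell markers, of the somatic cells around the oocyte, summed to 78.2 to 84.9 CPM in Ago2 fl/fl, 65.8 to 71.7 in Ago2 ADH, 57.9 to 61.6 in Ago2 null, 97.8 to 105 in Dicer WT and 81.2 to 84.2 in Dicer KO, and 2 to 8 of the 14 were at or under 3 counts in a library. Most of that sum came from Cyp19a1, with 1068 to 2398 counts in a library, and Nr5a2, with 801 to 2422, and Kitl had 114 to 339. Foxl2 had at most 7 counts and Ptx3 at most 1. Theca, immune and blood markers summed to at most 2.51, 0.512 and 0.786 CPM. The granulosa sum was lower in each mutant group than in its control, but its genes did not all go that way. Inha had 54, 54 and 22 counts in Ago2 fl/fl, 88, 75 and 58 in Ago2 ADH and 82 and 69 in Ago2 null. In the Dicer series Inha had 8, 8 and 24 in WT and 1, 8 and 10 in KO. Cyp11a1 had 114, 78 and 50 in Ago2 fl/fl, 211, 410 and 99 in Ago2 ADH and 99 and 33 in Ago2 null. It went with the sum in the Dicer series, with 55, 48 and 46 in WT and 3, 8 and 4 in KO. The part of these cells in the results below was not tested. The libraries of an Ago2 genotype shared a sequencing lane that no other genotype used, by the names of the deposited tables, and an effect of lane cannot be told apart from one of genotype.

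Per kb of transcript, the scale on which genes can be compared, the 10 factors differed widely in level. Reads of the Obox genes that aligned to several places were not counted, yet the full transcript length was used. Their levels and ranks may therefore be too low, and their places in the order are uncertain. In Ago2 fl/fl oocytes Nobox stood at 188 ± 13.8 CPM per kb (SD, n = 3), ahead of Obox5 at 174 ± 3.36, Lhx8 at 159 ± 4.49 and Obox1 at 121 ± 0.678. Among 20241 genes with a known length, Nobox ranked 266th from the top by this level, Obox5 300th, Lhx8 342nd and Obox1 471st. Figla followed at 41.0 ± 6.12 CPM per kb. The ranges of Nobox and Obox5 overlapped, whereas each other step among these 5 genes was larger than the spread of the 3 libraries. That spread does not cover the uncounted Obox reads.

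Tbpl2 at 5.59 ± 1.27 CPM per kb and Taf4b at 5.29 ± 0.177 were lower and overlapped each other. Sohlh2 was lower again at 2.26 ± 0.0380. Obox6 at 0.204 ± 0.192 and Sohlh1 at 0.0756 ± 0.0595 were the least abundant, overlapped each other, and rested on few reads. In Dicer WT oocytes the order of levels was Nobox at 216 ± 5.45, Lhx8 at 166 ± 10.02, Obox5 at 143 ± 5.19 and Obox1 at 108 ± 6.87 CPM per kb. Each step was without overlap, with the same limit for the Obox genes. Figla stood at 21.3 ± 0.955 there, Tbpl2 at 8.29 ± 1.03, Taf4b at 6.81 ± 0.969 and Sohlh2 at 2.44 ± 0.230. The ranges of Tbpl2 and Taf4b overlapped again. The Ago2 and Dicer series were prepared apart, so these levels are set side by side without a test.

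**Figure D2:**
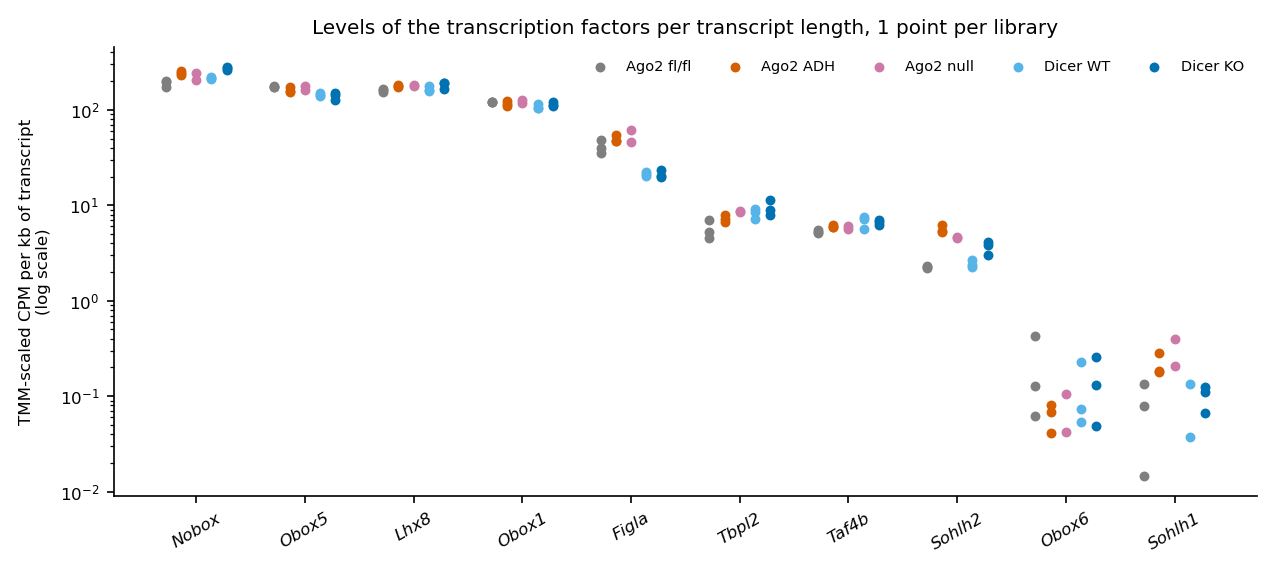
Level of each transcription factor in TMM-scaled CPM per kb of transcript (log scale), 1 point per library, coloured by group and ordered by the mean in Ago2 fl/fl. Nobox, Obox5, Lhx8 and Obox1 are the highest, and Obox6 and Sohlh1 lie below 1 CPM per kb in all libraries. The Dicer WT library with 0 Sohlh1 counts is not drawn.

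Several of these factors were higher in oocytes with the cleavage-dead Ago2 allele, and none was lower. In Ago2 ADH against the control, 4 of the 10 genes rose (Sohlh2, Nobox, Lhx8 and Figla), 5 did not pass the test and Obox6 was too low to be tested. Of all 18835 transcripts tested 40.7% were called, 20.5% as higher and 20.1% as lower, at an FDR of 1% by edgeR's quasi-likelihood test, so a rise was common in this comparison. In Ago2 null against the same Ago2 fl/fl libraries 5 genes rose (the same 4 and Tbpl2) and 0 fell, where 37.2% of 19236 transcripts were called, 18.1% as higher and 19.1% as lower. In Dicer KO against Dicer WT 2 genes rose (Sohlh2 and Nobox) and 0 fell, where 34.5% of 18570 transcripts were called, 16.7% as higher and 17.8% as lower. Sohlh2 and Nobox rose in all 3 comparisons, as did 11.1% of the 17969 transcripts tested in each. All mutant libraries lay above all control libraries for 5 of 9 tested genes in Ago2 ADH, 6 of 9 in Ago2 null and 2 of 8 in Dicer KO. The shares of all transcripts tested were 26.8%, 31.2% and 27.1%. The 5 and the 6 include Sohlh1, which was near the detection floor and passed the low-count filter through the mutant libraries. Its separation is therefore no support for a rise.

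**Figure D3:**
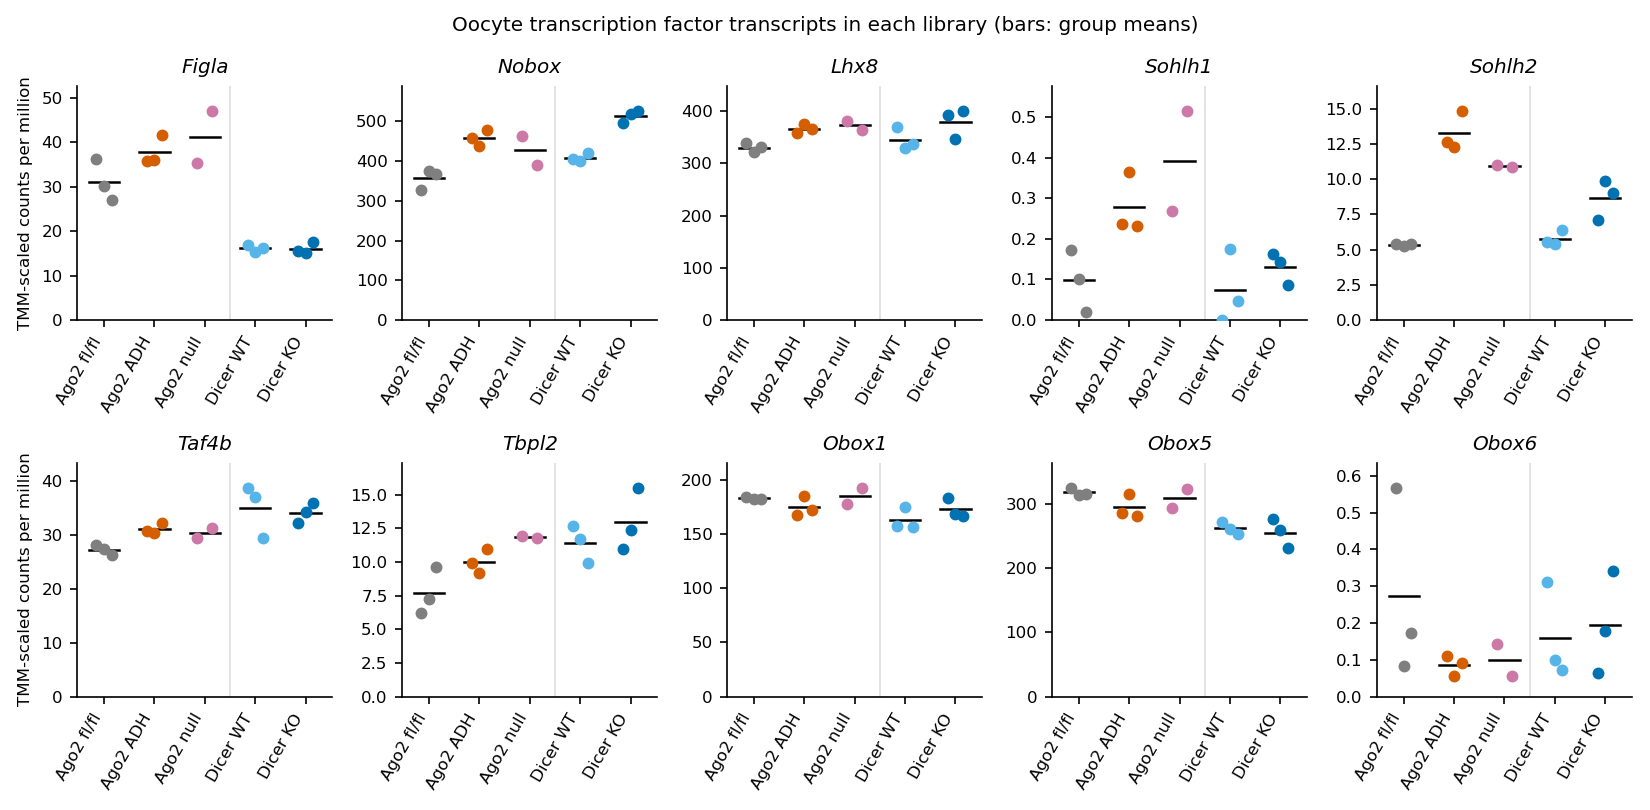
TMM-scaled CPM of each transcription factor (vertical axis from 0, a scale for each gene), 1 point per library, with black bars at group means and a grey line between the Ago2 and Dicer series. Sohlh2 lies between 5.25 and 5.41 CPM in Ago2 fl/fl and between 12.3 and 14.8 in Ago2 ADH, and Obox1 and Obox5 overlap between each mutant and its control.

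Sohlh2 (chromosome 3, 55182044-55209957, GRCm38), whose protein pairs with SOHLH1 in young oocytes, changed the most among the genes called. Its levels were 5.39, 5.25 and 5.41 CPM in the 3 controls (Ago2 fl/fl), 12.6, 12.3 and 14.8 in Ago2 ADH, and 11.01 and 10.9 in Ago2 null. Every mutant library was far above every control library. These levels rested on 284 to 313 counts in the control libraries and 570 to 692 in the mutants. The fold change was 2.56 in Ago2 ADH (95% interval 2.15 to 3.04, adjusted p = 1.83e-08) and 2.09 in Ago2 null (1.73 to 2.52, adjusted p = 3.63e-06) by edgeR's quasi-likelihood test. Both calls held under every alternative run.

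In the Dicer series Sohlh2 was 5.54, 5.38 and 6.39 CPM in WT and 7.12, 9.85 and 9.02 in KO libraries, again without overlap. The fold change was 1.497 (95% interval 1.17 to 1.92), and the adjusted p of 0.00949 was close to the threshold of 0.01. Without Dicer WT replicate 1, 2 or 3 the adjusted p was 0.0320, 0.0453 and 0.0129, and without Dicer KO replicate 2 or 3 it was 0.0567 and 0.0267, so this call needed nearly every library. The difference between the Ago2 ADH and the Dicer KO effect was 0.72 on the log2 scale (SE 0.20). Its adjusted p was 0.0270 by edgeR, which misses the threshold, and 0.00565 by DESeq2, which passes it. Of all 19500 transcripts tested, 3.55% differed between the effects by edgeR, 1.2% with the higher effect in Ago2 ADH and 2.35% with the lower.

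Its known partner Sohlh1 (chromosome 2, 25842995-25847248) was near the detection floor. The raw counts were 10, 6 and 1 in Ago2 fl/fl, 13, 20 and 10 in Ago2 ADH, and 15 and 27 in Ago2 null. The mutant libraries were at or above the controls in raw counts and did not overlap them in CPM. It passed the low-count filter in the Ago2 comparisons through the mutant libraries. The log2 fold change was 1.52 (SE 0.66, adjusted p = 0.0618) in Ago2 ADH and 1.99 (SE 0.75, adjusted p = 0.0381) in Ago2 null, neither of which passed. In the Dicer series it had 0, 7 and 2 counts in WT and 5, 4 and 3 in KO libraries and was not tested.

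Nobox (chromosome 6, 43303674-43310072), a homeobox gene needed for the growth of the first follicles, rose modestly from a high level. It was 326, 375 and 367 CPM in Ago2 fl/fl, 458, 439 and 478 in Ago2 ADH, and 463 and 391 in Ago2 null. All 5 mutant libraries were above the 3 controls. Counts rose by 32.9% in Ago2 ADH (95% interval 22.4 to 44.4%, adjusted p = 6.99e-06) and by 22.4% in Ago2 null (9.69 to 36.6%, adjusted p = 0.00391). The call in Ago2 null was lost without Ago2 fl/fl replicate 1 (adjusted p = 0.0140) or Ago2 null replicate 1 (0.0770). In the Dicer series Nobox was 404, 401 and 420 CPM in WT and 496, 519 and 526 in KO libraries, without overlap. That rise was 25.5% (95% interval 15.5 to 36.3%, adjusted p = 0.000111). The Ago2 ADH and Dicer KO calls held under every alternative run, and the difference between these effects was 0.03 on the log2 scale (95% interval -0.13 to 0.19).

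Lhx8 (chromosome 3, 154306288-154330560), a LIM-homeobox gene, differed less. It was 339, 321 and 330 CPM in Ago2 fl/fl, 359, 375 and 365 in Ago2 ADH, and 381 and 364 in Ago2 null. The groups did not overlap, although the closest libraries were near each other. The rise was 14.5% in Ago2 ADH (95% interval 7.34 to 22.2%, adjusted p = 0.00116) and 15.4% in Ago2 null (6.47 to 25.01%, adjusted p = 0.00493). Without Ago2 fl/fl replicate 2 the adjusted p was 0.0157 in Ago2 ADH and 0.0373 in Ago2 null. The call in Ago2 null was also lost without Ago2 fl/fl replicate 3 (0.0169) or Ago2 null replicate 1 (0.0304). With all 5 groups in one fit both calls were lost (0.0377 in Ago2 ADH and 0.0296 in Ago2 null). Dicer libraries had 369, 330 and 337 CPM of Lhx8 in WT and 391, 346 and 400 in KO libraries, which overlapped, with a change of 9.57% (95% interval -0.609 to 20.8%, adjusted p = 0.117).

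Figla (chromosome 6, 86016494-86020996) is known for its control of the zona pellucida genes. It was 36.2, 30.1 and 27.1 CPM in Ago2 fl/fl, 35.8, 35.97 and 41.6 in Ago2 ADH, and 35.3 and 47.1 in Ago2 null. The highest control library lay above 3 of the 5 mutant libraries, so the groups overlapped. It was nevertheless called, with a rise of 25.4% in Ago2 ADH (95% interval 9.40 to 43.8%, adjusted p = 0.00682) and 35.01% in Ago2 null (13.4 to 60.8%, adjusted p = 0.00628). Both calls were lost in several fits that left out a library. Without Ago2 ADH replicate 1 the log2 fold change in Ago2 ADH was 0.35, beside 0.33 with all libraries, so that loss was not one of size. The Ago2 ADH call was lost without Ago2 fl/fl replicate 2 (adjusted p = 0.0310) or 3 (0.0554), or without Ago2 ADH replicate 1 (0.0128) or 3 (0.0544). The Ago2 null call was lost without Ago2 fl/fl replicate 2 (0.0229) or 3 (0.0364) or Ago2 null replicate 2 (0.186). In the Dicer series Figla was 15.4 to 16.8 CPM in WT and 15.04 to 17.6 CPM in KO libraries, below all Ago2 libraries. The KO change was -0.885% (95% interval -16.3 to 17.3%, adjusted p = 0.941).

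The core promoter factors gave a mixed picture. Tbpl2 (chromosome 2, 24071366-24096595) was 6.23, 7.25 and 9.64 CPM in Ago2 fl/fl, 9.94, 9.16 and 10.9 in Ago2 ADH, and 11.9 and 11.8 in Ago2 null. The highest control lay inside the Ago2 ADH range and below both Ago2 null libraries. The fold change was 1.57 in Ago2 null (95% interval 1.25 to 1.97, adjusted p = 0.00248), a call lost without Ago2 fl/fl replicate 2 (0.0112). In Ago2 ADH it was 1.34 (1.08 to 1.66, adjusted p = 0.0206), which did not pass. Without Ago2 fl/fl replicate 3, the high control, the adjusted p in Ago2 ADH was 0.00187. In Dicer WT Tbpl2 was 9.89 to 12.7 CPM and in Dicer KO 10.99 to 15.5 CPM, with a fold change of 1.13 (0.911 to 1.41, adjusted p = 0.345).

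Taf4b (chromosome 18, 14783201-14960424) was 28.1, 27.3 and 26.3 CPM in Ago2 fl/fl, 30.7, 30.4 and 32.3 in Ago2 ADH, and 29.3 and 31.3 in Ago2 null. The mutant libraries were all above the controls. The differences of 18.0% (95% interval 6.02 to 31.2%, adjusted p = 0.0107) and 13.7% (0.661 to 28.4%, adjusted p = 0.0751) did not pass the test. The Ago2 ADH value was at the threshold, and DESeq2 called it (adjusted p = 0.00494), as did edgeR without Ago2 ADH replicate 2 (0.00985). The Dicer series had Taf4b at 29.4 to 38.8 CPM in WT and 32.1 to 35.8 CPM in KO libraries, with a change of -3.06% (-16.4 to 12.4%, adjusted p = 0.747).

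Obox1 and Obox5, among the most abundant of the 10 mRNAs, showed no detectable difference in any comparison. Obox1 was 184, 182 and 182 CPM in Ago2 fl/fl, 167, 185 and 172 in Ago2 ADH, and 178 and 193 in Ago2 null. The mutant libraries spread to both sides of the controls. The change was -1.13% in Ago2 ADH (95% interval -7.88 to 6.11%, adjusted p = 0.798) and 3.63% in Ago2 null (-4.84 to 12.8%, adjusted p = 0.488). The Dicer series had Obox1 at 157 to 175 CPM in WT and 167 to 183.5 CPM in KO libraries, a change of 5.98% (-3.70 to 16.6%, adjusted p = 0.317).

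Obox5 was 326, 315 and 315 CPM in Ago2 fl/fl, 287, 316 and 282 in Ago2 ADH, and 295 and 324 in Ago2 null. Here too the groups overlapped. The change was -4.38% in Ago2 ADH (95% interval -10.9 to 2.59%, adjusted p = 0.276) and -0.850% in Ago2 null (-8.85 to 7.85%, adjusted p = 0.878). The Dicer series had Obox5 at 254 to 272.5 CPM in WT and 231 to 276.5 CPM in KO libraries, a change of -2.86% (-11.9 to 7.15%, adjusted p = 0.644). Reads with several alignments, which could include Obox reads, were 33.2 to 34.6% of the sum of counted, unassigned and multiply aligned entries in Ago2 fl/fl, 57.3 to 58.1% in Ago2 ADH, 57.0 to 58.3% in Ago2 null, 25.6 to 31.5% in Dicer WT and 44.4 to 49.5% in Dicer KO. Their part in the Obox values was not tested.

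Obox6 had 2 to 33 counts per library. The counts were 33, 5 and 9 in Ago2 fl/fl, 6, 3 and 4 in Ago2 ADH, 8 and 3 in Ago2 null, 12, 4 and 3 in Dicer WT, and 2, 5 and 12 in Dicer KO. Each mutant group overlapped its control, and 1 library stood above the others in Ago2 fl/fl. It did not pass the filter in any comparison of 2 groups, so a difference was not detectable at this depth.

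**Figure D4:**
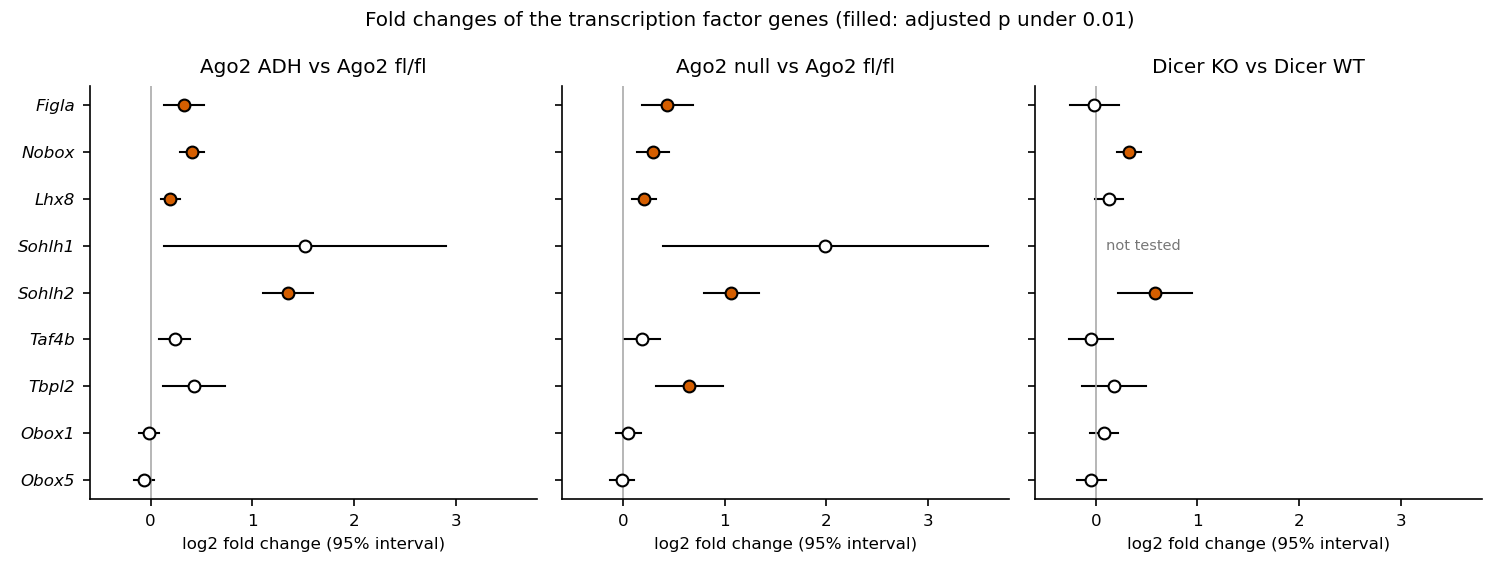
Log2 fold change and 95% interval of 9 of the transcription factors in Ago2 ADH and Ago2 null against Ago2 fl/fl and in Dicer KO against Dicer WT, with filled points at an adjusted p under 0.01. Sohlh2 reaches 1.35, 1.06 and 0.58, and the intervals of Obox1 and Obox5 include 0 in each panel. Obox6 passed the filter in none of these comparisons and is left out.

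Between Ago2 ADH and Ago2 null oocytes 0 of the 9 genes tested were called by edgeR or by DESeq2, where 0.119% of 19306 transcripts were called, 0.0673% as higher in Ago2 ADH and 0.0518% as lower. Sohlh2 alone had an unadjusted p below 0.05, being 1.21-fold higher in Ago2 ADH (95% interval 1.00 to 1.45, adjusted p = 0.495). Nobox was 1.07-fold higher (0.966 to 1.19) and Lhx8 0.980-fold (0.900 to 1.07). For Figla the ratio was 0.917 (0.781 to 1.08) and for Tbpl2 0.844 (0.699 to 1.02), so that differences of these sizes remain possible with 2 null libraries. Both mutants share their control libraries in the comparisons above. The test of the Ago2 ADH against the Dicer KO effect called 0 of 10 genes by edgeR and 1, Sohlh2, by DESeq2. By edgeR 1 had an unadjusted p below 0.05.

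Genes listed as relatives, partners or targets of these factors were read from 4 lists, drawn up with earlier results of these data known. Among the Obox family and its relatives 8 of 11 listed genes were in the tables, and 0 of 6 tested were called in Ago2 ADH or in Dicer KO. In Ago2 ADH 1 was called higher with no filter on low counts, with all 5 groups in one fit or without Ago2 ADH replicate 3. In Dicer KO 1 was called higher at an FDR of 5% or with all 5 groups in one fit. In Ago2 null 1 of 7 was called higher. That gene was Crxos, a homeobox gene singled out here after its values were seen, with 0, 1 and 1 counts in Ago2 fl/fl and 11 and 30 in Ago2 null. Crxos had 13, 11 and 4 counts in Ago2 ADH, 0, 0 and 0 in Dicer WT and 5, 8 and 1 in Dicer KO. It passed the low-count filter only through the null libraries where it was high, so its call is no support for a rise in the family, and it was not tested in Ago2 ADH or Dicer KO. The count was 0 without Ago2 null replicate 2 or with at least 10 counts required in every library. The list's median log2 fold changes were -0.03, 0.05 and 0.09 in Ago2 ADH, Ago2 null and Dicer KO, beside 0.01, 0.00 and -0.00 over all transcripts tested. Obox2, which shares most words with Obox1, was 0.968-fold (95% interval 0.884 to 1.06), 0.995-fold (0.904 to 1.09) and 1.08-fold (0.984 to 1.18) of its control.

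Of 20 genes listed as dimer and cofactor partners, 18 were tested. Among these 7 rose and 5 fell in Ago2 ADH, 7 rose and 6 fell in Ago2 null, and 5 rose and 2 fell in Dicer KO. Whether each listed gene works with these factors was not tested. The list was drawn up with earlier results known, so its counts and medians are descriptions only. Over all transcripts tested 20.5%, 18.1% and 16.7% were higher and 20.1%, 19.1% and 17.8% lower in the same comparisons. The list's median log2 fold changes were 0.14, 0.14 and 0.17, beside 0.01, 0.00 and -0.00 over all transcripts. Stat3, a cytokine-activated transcription factor, went from 70.7 ± 0.601 CPM (SD, n = 3) in Ago2 fl/fl to 451 ± 6.51 in Ago2 ADH and 427 ± 11.8 (n = 2) in Ago2 null, and from 94.5 ± 8.77 in Dicer WT to 430 ± 24.6 in Dicer KO. Ldb2, a cofactor of LIM-homeodomain proteins such as LHX8, rose 5.35-fold in Ago2 ADH, 4.71-fold in Ago2 null and 12.2-fold in Dicer KO. Dynll1, a dynein light chain, rose by 1.32, 1.44 and 1.87 on the log2 scale. Of the E proteins that pair with FIGLA and the SOHLH proteins, Tcf3 rose in each comparison, by 0.34, 0.31 and 0.36 on the log2 scale. Tcf12, another E protein, rose by 0.55 and 0.51 in the Ago2 mutants and had a log2 fold change of -0.01 in Dicer KO. Tcf4 fell to 0.368-fold in Ago2 ADH and 0.290-fold in Ago2 null and was not called in Dicer KO (0.925-fold, adjusted p = 0.589). Lhx2 fell to 0.385-fold and 0.383-fold and was not called in Dicer KO (0.664-fold, adjusted p = 0.0171). Foxo3, which holds back growth of the oocyte, fell to 0.738-fold and 0.657-fold and was not called in Dicer KO (0.930-fold, adjusted p = 0.202). By edgeR the effects of Ago2 ADH and Dicer KO differed for several partners. The effect was called higher in Ago2 ADH for 2 of the 18 genes and lower for 4, beside 1.2% and 2.35% of all transcripts. The 2 were Stat3 (adjusted p = 0.000838) and Sp1 (0.000734). The 4 were Dynll1 (1.91e-05), Ldb2 (0.000875), Tcf4 (0.0015) and Foxo3 (0.00323). Lhx2 was not called (0.0378). Sp1 fell to 0.842-fold, 0.810-fold and 0.561-fold in Ago2 ADH, Ago2 null and Dicer KO and Sall4 to 0.772-fold, 0.684-fold and 0.859-fold. The 2 genes that fell in Dicer KO became 1 without Dicer WT replicate 1 or 2, and the 7 that rose in Ago2 null became 4 without Ago2 null replicate 2.

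Of 19 tested genes of TFIID, the TBP family and TFIIA, 5 rose and 5 fell in Ago2 ADH, 3 rose and 4 fell in Ago2 null, and 6 rose and 4 fell in Dicer KO. Of 19 genes, 5 higher in Ago2 ADH and 3 in Ago2 null were near the shares of all transcripts (20.5% and 18.1%), beside 16.7% in Dicer KO, and 20.1%, 19.1% and 17.8% of all transcripts were lower. The medians were -0.03, 0.00 and -0.05, beside 0.01, 0.00 and -0.00 over all transcripts. Gtf2a1l, the germ cell form of a TFIIA subunit and a known partner of TBPL2, rose 1.63-fold in Ago2 ADH and 1.65-fold in Ago2 null. In Dicer KO its log2 fold change was 0.27 with an adjusted p of 0.0881. Gtf2b, the general factor TFIIB, rose 1.22-fold, 1.25-fold and 1.42-fold in the 3 comparisons. Subunits of TFIID went both ways. Taf5 rose in each comparison, by 0.32, 0.27 and 0.29 on the log2 scale. Taf3, Taf6 and Taf7 fell in each, Taf3 to 0.798-fold, 0.711-fold and 0.794-fold, Taf6 to 0.712-fold, 0.711-fold and 0.705-fold and Taf7 to 0.762-fold, 0.653-fold and 0.784-fold. Taf11 fell to 0.647-fold in Dicer KO, and its log2 fold changes of -0.05 and -0.04 in the Ago2 mutants did not pass. Taf4, the broadly expressed relative of Taf4b, fell by 0.23 and 0.29 on the log2 scale in the Ago2 mutants and rose 1.45-fold in Dicer KO, a difference of effects of -0.82 between Ago2 ADH and Dicer KO (adjusted p = 4.58e-06). Tbpl1, a relative of Tbpl2, rose 2.19-fold in Dicer KO, and its log2 fold changes of 0.29 and 0.34 in the Ago2 mutants did not pass. The 5 genes that rose in Ago2 ADH became 3 without Ago2 fl/fl replicate 3, Ago2 ADH replicate 1 or Ago2 ADH replicate 3.

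Of 20 known targets of FIGLA, NOBOX, SOHLH1 and LHX8, all tested, 5 rose and 7 fell in Ago2 ADH, 5 rose and 4 fell in Ago2 null, and 1 rose and 9 fell in Dicer KO. The shares of all transcripts were 20.5%, 18.1% and 16.7% higher and 20.1%, 19.1% and 17.8% lower, so the counts in Ago2 null were near them. The medians were -0.12, -0.04 and -0.14, beside 0.01, 0.00 and -0.00 over all transcripts. The zona pellucida genes Zp2 and Zp3 rose in the Ago2 mutants, Zp3 from 1891 ± 16.3 CPM (SD, n = 3) to 2316 ± 56.1 in Ago2 ADH and 2369 ± 51.6 (n = 2) in Ago2 null. Zp1, the other zona gene listed, was 1.10-fold in Ago2 ADH and did not pass edgeR's test (adjusted p = 0.0202). In Dicer KO the log2 fold change of Zp3 was -0.08 (adjusted p = 0.326), and the test of the difference between the Ago2 ADH and the Dicer KO effect gave 0.37 (adjusted p = 0.0043). Padi6, needed for the cytoplasmic lattices of the oocyte, rose 1.25-fold and 1.26-fold in the Ago2 mutants and had a log2 fold change of -0.04 in Dicer KO (adjusted p = 0.685). Gdf9, an oocyte growth factor and a NOBOX target, had log2 fold changes of -0.02, 0.04 and -0.09 and passed in none. Mos, the kinase that holds the egg at metaphase II, fell to 0.583-fold, 0.507-fold and 0.618-fold in Ago2 ADH, Ago2 null and Dicer KO. Kit, the receptor for KIT ligand, fell to 0.619-fold, 0.588-fold and 0.650-fold. Dnmt1, the maintenance DNA methyltransferase, fell to 0.726-fold and 0.610-fold in the Ago2 mutants and by 0.49 on the log2 scale in Dicer KO. Rspo2, which encodes a secreted activator of WNT signalling, fell to 0.764-fold, 0.784-fold and 0.678-fold. Pla2g4c rose 1.30-fold, 1.24-fold and 1.22-fold.

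**Figure D5:**
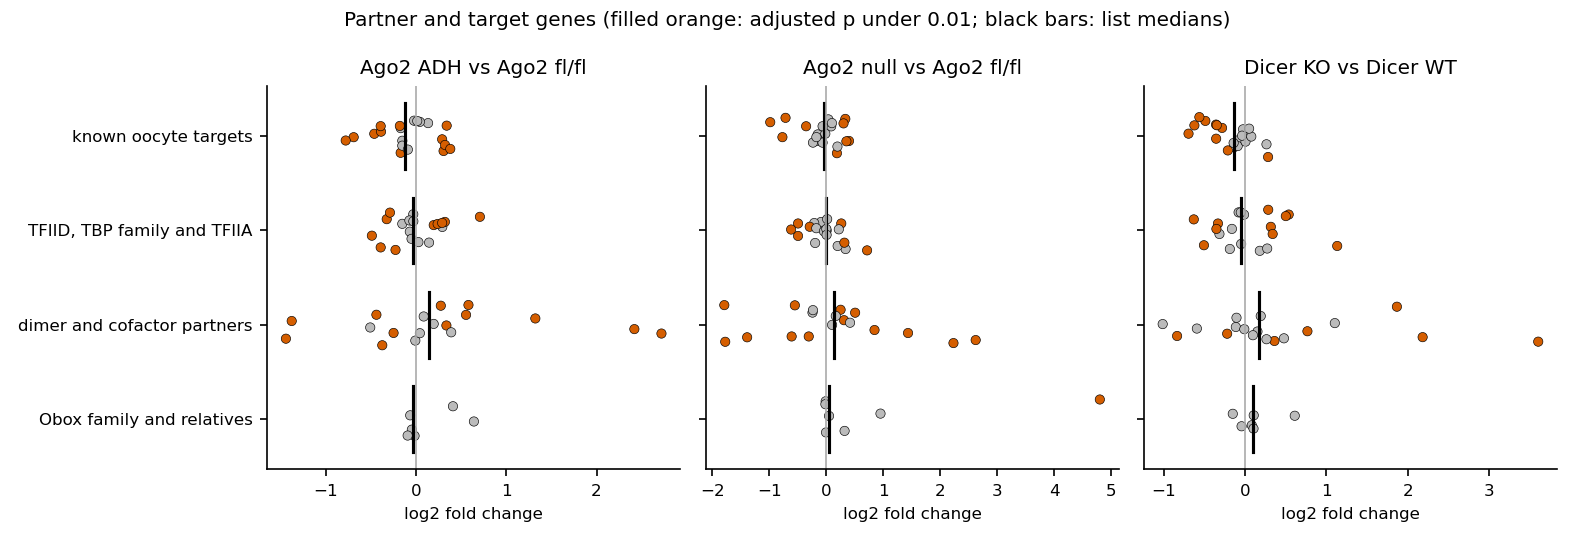
Log2 fold changes of the tested genes of 4 lists in the 3 mutant comparisons, 1 point per gene, orange at an adjusted p under 0.01, with black bars at list medians. The medians lie between -0.14 and 0.17, and Stat3, Ldb2 and Dynll1 are the listed partners farthest to the right in each panel.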

How the data were processed

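Per the labels, each library was made from 20 oocytes with amplified cDNA, and the submitters' processing notes name TopHat2 2.0.7, HTSeq 0.6.1, DESeq 1.10.0 and build mm10 (GRCm38). The authors deposited raw counts, made with htseq-count, for 26495 RefSeq transcripts, counted without regard to strand, plus 5 tallies. Unassigned entries were 5.96 to 9.65% and entries with several alignments 25.6 to 58.3% of the sum of counted, unassigned and multiply aligned entries. The tallies were left out of library sizes.

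Symbols came from RefSeq (26081 transcripts) or GENCODE M21 (113), and 301 IDs had none. Lengths were known for 98.2%. Counts were tested with edgeR 4.0.16 in R 4.3.3 (filterByExpr with a minimum count of 10 and total of 15, TMM, quasi-likelihood test, Benjamini-Hochberg over all transcripts, FDR 1%). The SE is the absolute log2 fold change divided by the square root of F, and intervals are 95%. The main alternative was DESeq2 1.42.0. CPM was scaled over all 14 libraries. The test script was checked on simulated data. Members and lists were chosen with earlier results of these data known. In each list up to 3 called genes in each direction with a mean of at least 100 counts are named by largest change. Other list genes (Tcf3, Tcf12, Gdf9, Zp1, and values of named genes in other comparisons) were added after their values were seen. Library pairs within a group correlated at 0.981 to 0.990, and none was a duplicate. PCR-amplified reads are not independent molecules.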

Additional observations from a re-analysis of the deposited data

How the results depend on the processing

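Among the 10 genes, the calls of Sohlh2 and Nobox in Ago2 ADH, of Sohlh2 in Ago2 null and of Nobox in Dicer KO kept their direction and their side of the threshold under every alternative run. The number of genes called in Ago2 ADH was 2 in place of 4 when all 5 groups were fitted together (Figla and Lhx8 lost, adjusted p = 0.0378 and 0.0377), a fit that also lost Lhx8 in Ago2 null (0.0296), and 2 to 5 when a library was left out. In Ago2 null it was 2 to 4 in place of 5 and in Dicer KO 1 to 2 in place of 2 when a library was left out. Replicate numbers did not pair the libraries: same-numbered libraries correlated at -0.085 to 0.043 in their deviations from group means, and 3 of 6 libraries in Ago2 ADH and fl/fl and 1 of 6 in the Dicer series correlated best with their own number. With a replicate block the calls were 5 in Ago2 ADH, 3 in Ago2 null and 1 in Dicer KO, with Tbpl2 gained in Ago2 ADH (adjusted p = 0.00624), Figla and Lhx8 lost in Ago2 null (0.0216 and 0.0452) and Sohlh2 lost in Dicer KO (0.0171). In the test of the Ago2 ADH effect against the Dicer KO effect, DESeq2 and an FDR of 5% each called 1 gene, Sohlh2, in place of 0. Over all transcripts the calls split into 234 higher and 458 lower by edgeR and 513 and 591 by DESeq2. With RLE scaling, 3 levels moved by more than their SD: in Ago2 fl/fl Sohlh2 was 2.21, Obox1 118 and Obox5 169.8 CPM per kb.

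The sign of several uncalled log2 fold changes depended on single libraries. Where 1 Ago2 null library was left, it was assumed to vary like the other libraries. Leaving out a library gave -0.051 to 0.0047 for Obox1 in Ago2 ADH, -0.0073 to 0.11 for Obox1 and -0.083 to 0.057 for Obox5 in Ago2 null, and -0.086 to 0.033 for Figla, -0.16 to 0.031 for Taf4b and -0.10 to 0.027 for Obox5 in Dicer KO. Obox5 in Ago2 null was 0.012 with at least 10 counts in every library. Between Ago2 ADH and Ago2 null the ranges were -0.31 to 0.094 for Figla, -0.018 to 0.23 for Nobox, -0.064 to 0.011 for Lhx8, -0.87 to 0.051 for Sohlh1 and -0.0044 to 0.080 for Taf4b. For the difference of effects they were -0.027 to 0.070 for Nobox, -0.050 to 0.053 for Lhx8 and -0.79 to 1.36 for Sohlh1. The cause was not tested. Counts for the 4 lists were added to the alternatives after seeing the data. Depth limits Sohlh1 and Obox6, at 0 to 33 counts, and 2 libraries limit Ago2 null.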

Other observations

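The genes on either side of Sohlh2 were looked at after its values were seen. Ccdc169 ends 9092 bases upstream on the same strand and was at 0.512 ± 0.103 CPM (SD, n = 3) in Ago2 ADH and 0.293 ± 0.0487 in Ago2 fl/fl, which did not pass the test (adjusted p = 0.130). Dclk1, a microtubule-associated kinase whose gene starts 32406 bases downstream, rose 2.26-fold in Ago2 ADH (95% interval 1.91 to 2.67) and 2.33-fold in Ago2 null (1.98 to 2.75). In Dicer WT and Dicer KO it was at 0.341 ± 0.0688 and 0.637 ± 0.213 CPM, with an adjusted p of 0.148. Between Ago2 ADH and Ago2 null oocytes, Oog1, an oocyte gene among the known targets, was the 1 gene of the 4 lists that was called, at 0.656-fold in Ago2 ADH (adjusted p = 0.00515).

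Over the 14 libraries, which share 2 series and 5 genotypes, the genes most like Sohlh2 in log2 CPM were Retreg2, Rusc1 and Rptor, with a Pearson r of 0.955, 0.954 and 0.952. For Nobox they were Sik2 (0.973), Ddx11 (0.957) and Lingo2 (0.953). Figla, whose levels in the Ago2 and Dicer series did not overlap, was most like Atp5pb (0.989), Fam216a (0.987) and Padi6 (0.984). Obox5 was most like Smim14 (0.973) and Lhx8 most like Septin14 (0.872). These are descriptions across 10349 genes compared.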
